A study of Mus musculus with 12 samples.

Results

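The 9 genes described here were grouped as antimicrobial proteins of the gut epithelium or proteins that hold bacteria away from its surface: Lypd8, Slc6a14, Ang4, Itln1, Lyz1, Pigr, Defb1, Defb3 and Pla2g2a. They were picked by gene symbol, and 9 of 9 were found among the 21314 genes of the table, each with 1 probe set. RNA of the whole colon was measured on 12 Affymetrix arrays, 1 per mouse, from mice of 6 to 8 weeks in 4 groups of 3: Parp1-/- mice given 4% dextran sulfate sodium (DSS) in drinking water for 7 days, Parp1-/- mice given plain water, wild-type mice given the same DSS, and wild-type mice given plain water. Parp1 encodes an enzyme that marks proteins with ADP-ribose chains where DNA is damaged, and DSS is a sulfated sugar polymer that damages the colon lining and causes colitis. The study asked how the colon without Parp1 differs at rest and under this injury. The sources used here do not give the strain, the sex or how the Parp1 allele was made. Sample names carry a different number for each mouse, and nothing says whether litters or cages were shared. The p-values set each difference against the spread between mice within the 4 groups, which includes differences between arrays.

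The colon keeps bacteria at a distance with mucus, secreted proteins and antibodies. Lypd8 is a glycosylated protein anchored on colonocytes that binds flagellated bacteria and keeps them out of the inner mucus layer. Slc6a14 is a transporter of neutral and cationic amino acids in the apical membrane of the distal gut epithelium. Pigr, the polymeric immunoglobulin receptor, carries dimeric IgA across epithelial cells and releases it as secretory IgA. Ang4 is a bactericidal ribonuclease of Paneth and goblet cells, Itln1 is a lectin of the same secretory cells that binds microbial sugars, and Lyz1 is the lysozyme of Paneth cells, which cuts bacterial cell walls. Defb1 and Defb3 are beta-defensins, small cationic peptides that disrupt bacterial membranes, and Pla2g2a is a secreted phospholipase that attacks bacterial membrane lipids.

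The deposited log2 values have the 12-array median of every probe set at 0, so 0 marks a gene's own middle level, genes cannot be compared in brightness, and the level of no marker can be checked against another tissue. Base 2 and larger values for more RNA were assumed. Differences with a limma p under 0.05 after adjustment over all genes are named as called. In whole tissue, fewer cells of a type and less RNA per cell cannot be told apart. The 3 wild-type water arrays and wild-type DSS 1 stood apart from the other 8. In those 4 arrays 13 housekeeping genes averaged -1.92 to -1.07, against 0.01 to 0.41 in the 8, and 1054 smell and pheromone receptor genes had medians of 0.38 to 0.42, against -0.12 to 0.05. Colonocyte markers averaged -1.60 to -0.78 and goblet cell markers -1.61 to -0.53 in the 4 arrays, against -0.06 to 0.47 and -0.01 to 0.46 in the other 8. Every comparison with wild-type water therefore carries this difference between arrays, and Parp1-/- against wild type in DSS carries it through wild-type DSS 1. The part of this difference in each result was not tested except where an alternative is given. Smooth muscle markers averaged 3.02 to 3.04 in Parp1-/- DSS 1 and Parp1-/- water 2 and 3, against -0.63 to 0.03 in the other 9 arrays. Parp1 itself differed by log2 -0.47 ± 0.33 (SE) between Parp1-/- and wild-type mice in water and by -0.52 ± 0.33 in DSS, called in neither (limma adjusted p of 0.273 and 0.872), and wild-type water 1, at -0.41, lay below all 6 Parp1-/- arrays. The sources used here do not say whether its probes cover the changed stretch of the gene, so Parp1 checks the labels only weakly.

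Lypd8, Slc6a14 and Pigr were lower in wild-type water than in the other 3 groups. Defb3 was higher there, and Defb1 was higher there and in wild-type DSS 1. Ang4 was lower after DSS in wild-type mice and lay lower in Parp1-/- mice too, where it was not called. Itln1, Lyz1 and Pla2g2a were called in no comparison. In Parp1-/- mice, DSS against water called 0 of the 9 genes, where limma called 0.00938% of all genes (2 genes, both higher), and 1 of the 9, Ang4, had an unadjusted p under 0.05, as did 609 of all genes. In wild-type mice, DSS against water called 5 of the 9, of which 3 were higher and 2 lower, where 13.0% of all genes were called, 8.89% higher and 4.16% lower. Parp1-/- against wild type in water called 6 of the 9, of which 4 were higher and 2 lower, where 31.6% of all genes were called, 17.9% higher and 13.7% lower. Parp1-/- against wild type in DSS called 0 of the 9 and 0% of all genes, and 0 of the 9 had an unadjusted p under 0.05, as did 593 of all genes. The DSS responses of the 2 genotypes differed in 3 of the 9, 1 higher and 2 lower in Parp1-/-, where 2.54% of all genes were called, 0.216% higher and 2.33% lower. The arrays of the 2 groups did not overlap in 3 of the 9 genes for DSS in Parp1-/- mice, where this held for 12.5% of all genes, and in 5 of 9 for DSS in wild-type mice, where it held for 23.6%, 11.4% higher and 12.2% lower. They did not overlap in 7 of 9 between genotypes in water, where it held for 55.4% of all genes, 26.2% higher and 29.2% lower, and in 0 of 9 between genotypes in DSS, where it held for 6.55%, 2.04% higher and 4.52% lower. DSS against water in wild-type mice, Parp1-/- against wild type in water and the difference of responses share the 3 wild-type water arrays. The median over the 9 genes was log2 -0.02 for DSS in Parp1-/- mice, 0.15 for DSS in wild-type mice, 0.84 for Parp1-/- against wild type in water, 0.09 for the genotypes in DSS and -0.36 for the difference of responses, beside 0.01, -0.05, -0.07, 0.00 and 0.05 over all genes.

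**Figure D1:**
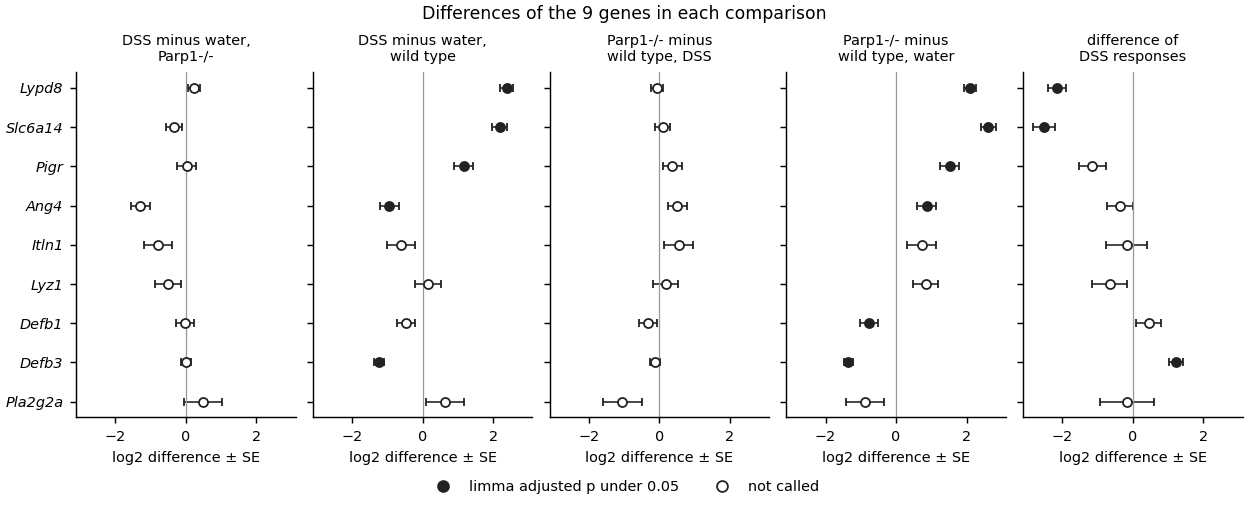
Log2 difference (x axis, with SE) of the 9 genes in each comparison, first group minus second as named above each panel, n = 3 mice per group. Filled points have a limma adjusted p under 0.05: 5 in wild-type DSS against water, 6 in Parp1-/- against wild type in water, 3 in the difference of DSS responses, and 0 in the other panels.

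Lypd8 showed a wide gap between the wild-type water mice and all other mice. Its values were 0.02, 0.12 and 0.12 in Parp1-/- DSS and -0.02, -0.16 and -0.24 in Parp1-/- water. In wild-type DSS they were 0.07, 0.24 and 0.14, against -2.03, -2.05 and -2.62 in wild-type water. The 3 wild-type water arrays lay far below the other 9, which lay close together around 0 and overlapped between wild-type DSS and Parp1-/- DSS. In wild-type mice Lypd8 was higher in DSS than in water by log2 2.38 ± 0.17 (SE, 3 mice in each group), or 5.20-fold, with a limma adjusted p of 3.83e-05. In Parp1-/- mice the DSS difference was 0.23 ± 0.17 (adjusted p of 1), although the 3 DSS arrays lay above the 3 water arrays, as for 7.82% of all genes. In water Lypd8 was higher in Parp1-/- than in wild-type mice by 2.09 ± 0.17 (adjusted p of 5.32e-05), and in DSS the genotypes differed by -0.06 ± 0.17 (adjusted p of 0.936). The DSS response was smaller in Parp1-/- mice by a difference of -2.15 ± 0.25 (adjusted p of 0.00195).

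Slc6a14 also separated wild-type water from the other groups. The Parp1-/- DSS arrays were at 0.19, 0.14 and -0.14 and the Parp1-/- water arrays at 0.43, 0.40 and 0.36. It was at -0.39, -0.17 and 0.47 in wild-type DSS, against -2.12, -2.05 and -2.47 in wild-type water. Wild-type water lay wholly below the other groups, and the 3 Parp1-/- DSS arrays lay below the 3 Parp1-/- water arrays, as for 4.70% of all genes. In wild-type mice Slc6a14 was higher in DSS than in water by log2 2.19 ± 0.22 (SE, 3 mice in each group), or 4.56-fold, with a limma adjusted p of 0.000136, while in Parp1-/- mice the difference was -0.33 ± 0.22 (adjusted p of 1). In water it was higher in Parp1-/- than in wild-type mice by 2.61 ± 0.22, or 6.12-fold (adjusted p of 5.32e-05), and in DSS the genotypes differed by 0.09 ± 0.22 (adjusted p of 0.922). The difference of the DSS responses, Parp1-/- minus wild type, was -2.52 ± 0.31 (adjusted p of 0.00262).

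Wild-type DSS 1 stood apart on array-wide measures, and these genes did not follow it fully. With a housekeeping mean of -1.07, that array had Lypd8 at 0.07, within the range of the 8 arrays that did not stand apart. Slc6a14, at -0.39, lay below their lowest, -0.17. Epithelial markers were mixed in wild-type DSS 1: Car1 was at 0.15 and Muc2 at -0.27, but Aqp8 at -2.27 and Fcgbp at -1.70. The cause was not tested. In wild-type water the housekeeping means were -1.92, -1.08 and -1.29, and Lypd8 lay below them by 0.11, 0.97 and 1.32 and Slc6a14 by 0.21, 0.97 and 1.17. With each array's housekeeping mean subtracted, a scaling added after seeing the data that called 15781 of all genes for DSS in wild-type mice and 16862 for the genotypes in water, the rise of Lypd8 with DSS in wild-type mice was 1.17 (adjusted p of 0.0146) and that of Slc6a14 0.98 (0.0175), and Slc6a14 remained higher in Parp1-/- mice in water at 1.05 (0.00932). Lypd8 in water was then not called, at 0.53 with an adjusted p of 0.216, nor were the differences of the DSS responses, at -0.90 for Lypd8 (0.163) and -1.27 for Slc6a14 (0.0531). Quantile normalization also left both differences of responses uncalled, at -0.89 (0.355) and -1.57 (0.192). Both genes kept their calls for DSS in wild-type mice under all 14 alternatives run for each, with adjusted p up to 0.0167 for Lypd8 and 0.0459 for Slc6a14. Of these, the probe set of highest mean could not change their log2 differences, as each gene has 1 probe set.

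Upstream sequences are shown for the 5 genes called for DSS in wild-type mice and, beside Ang4, for Itln1, another product of the same secretory cells. They cover the 250 bases before the RefSeq transcription start, from the GRCm38.p6 assembly, 5′ to 3′ on the gene's own strand, for 7 of the 9 genes (Defb1 and Pla2g2a had no entry). In RefSeq Pigr and Itln1 lie on chromosome 1, Pla2g2a on 4, Defb1 and Defb3 on 8, Lyz1 on 10, Lypd8 on 11, Ang4 on 14 and Slc6a14 on X. Capitals mark matches to 4 motifs: a TATA-type site (TATANA, sense strand only, its letters widened after the sequences were seen), a STAT-type site (TTCNNNGAA), a CDX-type site (TTTATG) and an E-box (CAGCTG), the last 3 on both strands. For Lypd8 the window is chr11:58378782-58379031 on the plus strand, the first of 2 starts in RefSeq, for Slc6a14 chrX:21714650-21714899 (plus) and for Pigr chr1:130826434-130826683 (plus).
Lypd8: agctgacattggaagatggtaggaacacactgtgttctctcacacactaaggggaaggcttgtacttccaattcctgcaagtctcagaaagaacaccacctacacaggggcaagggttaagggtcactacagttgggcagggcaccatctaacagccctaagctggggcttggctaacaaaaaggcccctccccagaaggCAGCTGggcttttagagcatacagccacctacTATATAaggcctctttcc
Slc6a14: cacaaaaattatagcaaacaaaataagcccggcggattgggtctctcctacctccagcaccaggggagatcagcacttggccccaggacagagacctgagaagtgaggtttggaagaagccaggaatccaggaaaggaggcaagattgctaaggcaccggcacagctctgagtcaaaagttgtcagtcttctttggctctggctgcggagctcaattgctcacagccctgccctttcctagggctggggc
Pigr: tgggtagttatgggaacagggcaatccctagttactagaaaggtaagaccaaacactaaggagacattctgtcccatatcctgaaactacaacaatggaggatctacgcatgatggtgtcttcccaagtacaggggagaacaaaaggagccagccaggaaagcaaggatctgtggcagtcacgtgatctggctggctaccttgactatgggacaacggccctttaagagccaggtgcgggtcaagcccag
Lypd8 held an E-box 50 to 45 bases and a TATA-type site 18 to 13 bases before its start, while the Slc6a14 and Pigr windows held none of the 4 motifs. Among all 32851 promoter windows of this length, 13.0% held the E-box, 16.4% the TATA-type site, 10.8% the CDX-type site and 7.02% the STAT-type site. A match is a description of letters only.

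Pigr, the IgA transporter, was also low in wild-type water, and it followed the housekeeping genes array by array. The Parp1-/- DSS arrays were at 0.22, 0.08 and -0.03 and the Parp1-/- water arrays at 0.11, 0.03 and 0.08. It was at -0.91, -0.18 and 0.25 in wild-type DSS, against -1.78, -1.03 and -1.52 in wild-type water. Wild-type DSS 1 lay close to the wild-type water arrays, and the 6 Parp1-/- arrays lay close together. Pigr was higher after DSS in wild-type mice by log2 1.17 ± 0.27 (SE, 3 mice in each group; limma adjusted p of 0.0184) and higher in Parp1-/- than in wild-type mice in water by 1.52 ± 0.27 (adjusted p of 0.00312). In Parp1-/- mice the DSS difference was 0.02 ± 0.27 (adjusted p of 1), between genotypes in DSS it was 0.37 ± 0.27 (0.872), and the difference of responses was -1.15 ± 0.39 (0.158). The housekeeping mean subtracted, Pigr lay between -0.23 and 0.15 in all 12 arrays, and both calls were lost, at -0.05 for DSS in wild-type mice (adjusted p of 0.884) and -0.05 for the genotypes in water (0.887). The call for DSS in wild-type mice was also lost after quantile normalization, at 0.54 (0.228), with the receptor median as a covariate, at 0.52 (0.19), with only the 6 wild-type arrays, at 1.17 (0.148), and without wild-type water 1 or 3 or wild-type DSS 2 or 3, at adjusted p of 0.06, 0.0518, 0.0747 and 0.0578. For the genotypes in water the call was also lost with the receptor covariate, at 0.44 (0.525). The difference of responses was called without wild-type DSS 1, at -1.47 (adjusted p of 0.00975), and with array weights, at -1.19 (0.00122).

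**Figure D2:**
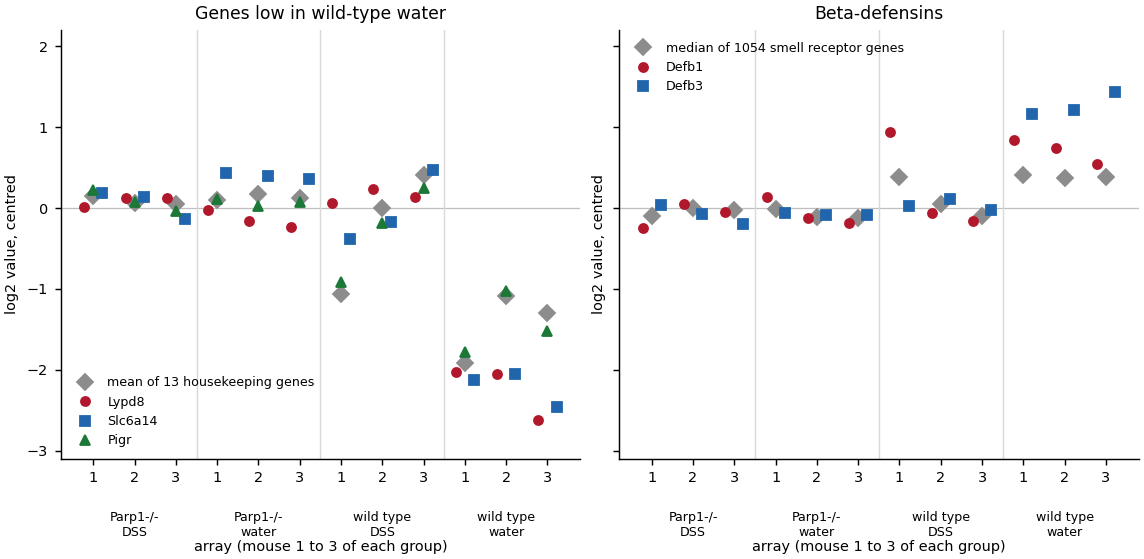
Centred log2 values (y axis) per array (x axis, mice 1 to 3 of each group) of Lypd8, Slc6a14 and Pigr beside the mean of 13 housekeeping genes (left, grey diamonds), and of Defb1 and Defb3 beside the median of 1054 smell receptor genes (right, grey diamonds). In wild-type DSS 1, Pigr (-0.91) and Defb1 (0.94) lay with or near the wild-type water arrays, while Lypd8 (0.07), Slc6a14 (-0.39) and Defb3 (0.03) lay with or near the other arrays.

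Among the secretory cell products, Ang4 was lower in DSS than in water in wild-type mice, and its values in Parp1-/- mice ran the same way without being called. Its values were 0.08, -0.89 and -0.20 in Parp1-/- DSS, against 1.15, 1.04 and 0.68 in Parp1-/- water. They were -1.13, -0.43 and -0.98 in wild-type DSS, against 0.09, 0.26 and -0.08 in wild-type water. The DSS and water arrays did not overlap in either genotype, as for 4.70% of all genes in this direction in Parp1-/- mice and 12.2% in wild-type mice. Between DSS and water in wild-type mice Ang4 had a log2 difference of -0.94 ± 0.26 (SE, n = 3 mice per group, limma adjusted p of 0.0388). In Parp1-/- mice the difference was -1.30 ± 0.26, with an unadjusted limma p of 0.000429 and an adjusted p of 0.339, and 0.2% of all genes had a difference as low or lower. The difference of the 2 responses was -0.36 ± 0.37 (adjusted p of 0.636). Ang4 was higher in Parp1-/- than in wild-type mice in water by 0.87 ± 0.26 (adjusted p of 0.0297), and the genotypes differed by 0.51 ± 0.26 in DSS (0.872).

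The lower Ang4 of wild-type DSS mice ran against the housekeeping, colonocyte and goblet cell genes of the same arrays, whose medians in that comparison were log2 1.37, 1.73 and 1.69, with 8 of 13, 7 of 12 and 6 of 10 called higher and 0 called lower. It ran with the 1054 receptor genes, whose median was -0.32, with 99 called lower and 1 higher. The part of the array shift in Ang4 was not tested. The Ang4 difference stayed below 0 in all 14 alternatives, from -2.15 with the housekeeping mean subtracted to -0.52 with array weights. It kept its call in only 4, including the highest-mean probe set, which cannot change it, and housekeeping subtraction, which moves every gene down here. It was not called after quantile normalization (adjusted p of 0.407), with equal array medians (0.0522), array weights (0.167) or the receptor covariate (0.0649), with only the 6 wild-type arrays (0.119), or without wild-type water 1, 2 or 3 (0.0815, 0.0923 and 0.0593) or wild-type DSS 1 or 3 (0.0528 and 0.105). The higher Ang4 of Parp1-/- mice in water changed sign with the housekeeping mean subtracted, to -0.70 (adjusted p of 0.107). It lost its call after quantile normalization (0.133), with array weights (0.0578) or the receptor covariate (0.608), and without wild-type water 1 or 3 (0.0643 and 0.079) or Parp1-/- water 1 or 2 (0.0808 and 0.0946). With array weights the DSS difference in Parp1-/- mice was called, at -1.26 (0.00845).

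Itln1 had group means in the order of those of Ang4, with wider spread among Parp1-/- mice. It was at 0.81, -0.42 and -0.30 in Parp1-/- DSS, against 1.74, 0.40 and 0.33 in Parp1-/- water. Wild-type DSS arrays were at -0.63, -0.22 and -0.70, against 0.22, -0.26 and 0.34 in wild-type water. In both genotypes DSS and water arrays overlapped, and the Parp1-/- values of Itln1 were spread by 1 high mouse in each group, mouse 1. Smooth muscle markers averaged -0.40 in Parp1-/- water 1, against 3.04 and 3.02 in Parp1-/- water 2 and 3. They averaged 3.02 in Parp1-/- DSS 1, against -0.15 and -0.04 in Parp1-/- DSS 2 and 3. The part of muscle content in Itln1 was not tested. The DSS difference was log2 -0.79 ± 0.40 in Parp1-/- mice and -0.61 ± 0.40 in wild-type mice (limma adjusted p of 1 and 0.329), and the genotypes differed by 0.72 ± 0.40 in water and 0.55 ± 0.40 in DSS (0.176 and 0.872). The difference of responses was -0.17 ± 0.57 (0.897). Without Parp1-/- water 1 the DSS difference in Parp1-/- mice was -0.33 and the genotype difference in water 0.26, and without Parp1-/- DSS 1 the genotype difference in DSS was 0.16. With the housekeeping mean subtracted the wild-type DSS difference was called, at -1.83 (0.00656), but this scaling moves every gene down in that comparison. The upstream windows of these 2 secretory genes are chr14:51773591-51773840 and chr1:171535295-171535544, both on the minus strand.
Ang4: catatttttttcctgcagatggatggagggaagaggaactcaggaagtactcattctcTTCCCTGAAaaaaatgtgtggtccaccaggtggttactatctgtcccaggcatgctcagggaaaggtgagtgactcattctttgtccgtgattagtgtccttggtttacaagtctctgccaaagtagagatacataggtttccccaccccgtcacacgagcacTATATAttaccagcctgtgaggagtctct
Itln1: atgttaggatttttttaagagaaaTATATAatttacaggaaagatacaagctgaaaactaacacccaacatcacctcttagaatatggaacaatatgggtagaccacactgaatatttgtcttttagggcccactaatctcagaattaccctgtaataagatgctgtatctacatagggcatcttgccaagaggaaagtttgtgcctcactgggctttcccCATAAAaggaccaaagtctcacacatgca
Ang4 held a STAT-type site 192 to 184 bases and a TATA-type site 29 to 24 bases before its start, and was the 1 gene of 7 with a STAT-type match. Itln1 held a CDX-type site on the opposite strand 29 to 24 bases before its start and a TATA-type site 226 to 221 bases before it.

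Lyz1 varied widely between mice of the same group. It was at 0.11, -0.25 and 0.03 in Parp1-/- DSS, against -0.25, 0.76 and 0.91 in Parp1-/- water. Wild-type DSS arrays were at -0.03, -0.68 and 0.07, against -0.27, -1.0 and 0.17 in wild-type water. The 2 highest values were Parp1-/- water 2 and 3, which also had high smooth muscle markers (3.04 and 3.02) and macrophage marker means of 0.56 and 0.29, and the part of these in Lyz1 was not tested. Parp1-/- DSS 1, with smooth muscle markers at 3.02, had the highest Lyz1 of its group by a small margin. Its close relative Lyz2, the lysozyme of macrophages and neutrophils, was at 0.36 and 0.10 in Parp1-/- water 2 and 3 and at -0.59 in Parp1-/- water 1, and how far the probes of Lyz1 and Lyz2 tell the 2 genes apart is unstated, so Lyz1 is uncertain. Lyz1 differed by log2 0.84 ± 0.36 between Parp1-/- and wild-type mice in water (limma adjusted p of 0.0875), and by -0.51 ± 0.36 and 0.15 ± 0.36 after DSS in Parp1-/- and wild-type mice (1 and 0.809). Without Parp1-/- water 1 the genotype difference in water was called, at 1.20 (0.0281), as it was with array weights, at 1.12 (0.0214). In DSS the genotypes differed by 0.18 ± 0.36 (0.908), or 0.63 with array weights (0.0209), and the difference of responses was -0.66 ± 0.50 (0.51). Paneth cells are normally scarce in the mouse colon. The 7 measured Paneth cell markers averaged -0.17 to 0.19 in every array, and of them 2 rose and 1 fell with DSS in wild-type mice, and 1 was higher and 3 lower in Parp1-/- than in wild-type mice in water. That mean hides opposite moves: in wild-type water Sox9 lay between -1.51 and -1.01, and the defensin Defa24 between 0.46 and 0.98.

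**Figure D3:**
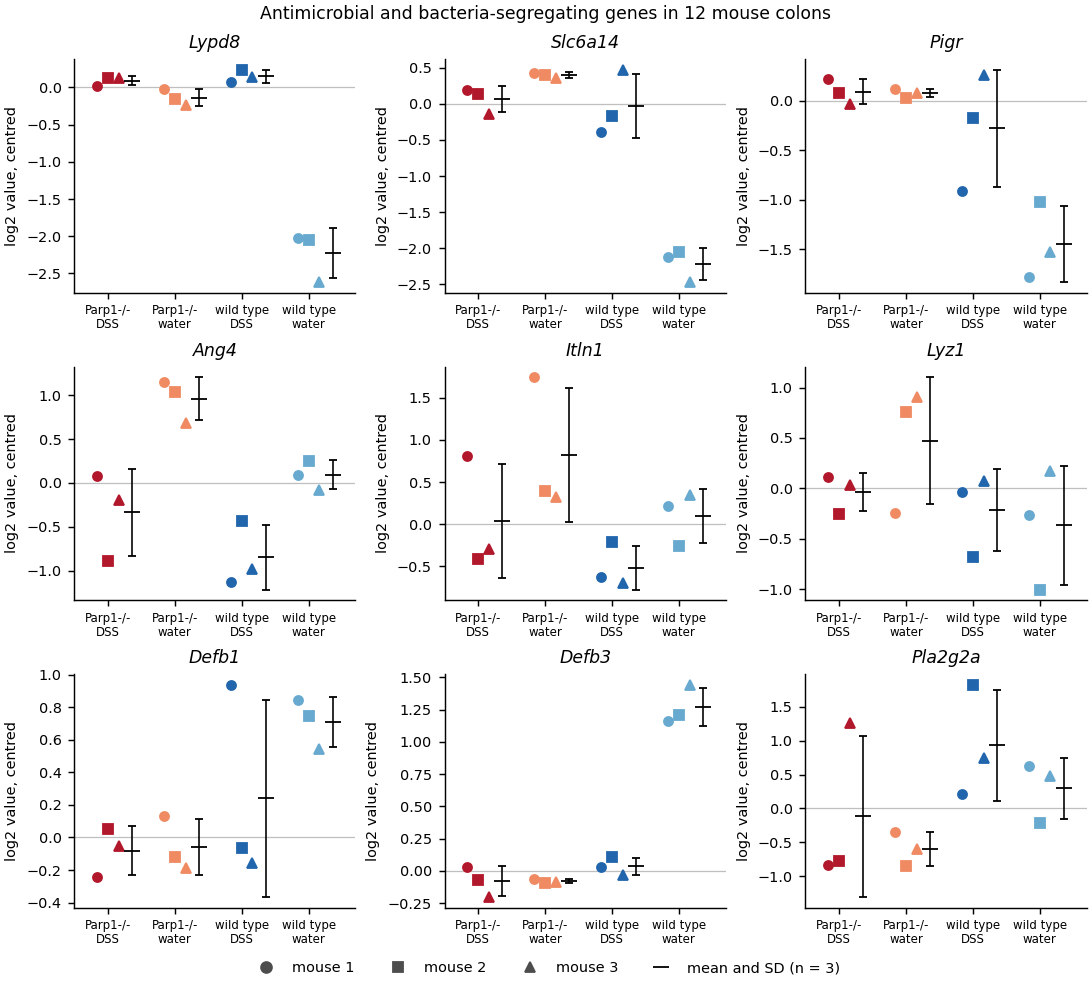
Centred log2 values (y axis, own scale per panel) of the 9 genes in the 4 groups, 1 symbol per mouse, with the mean and SD of each group (n = 3). Wild-type water stands below the other groups in Lypd8, Slc6a14 and Pigr and above them in Defb3, while Ang4 lies lower in DSS than in water in both genotypes.

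The beta-defensins ran the other way from Lypd8 and Slc6a14. Defb3, an inducible beta-defensin of mouse epithelia, was at 0.03, -0.07 and -0.20 in Parp1-/- DSS and at -0.06, -0.09 and -0.08 in Parp1-/- water. Wild-type DSS arrays were at 0.03, 0.11 and -0.03, against 1.16, 1.21 and 1.44 in wild-type water. The 3 wild-type water arrays lay above all 9 others. Between DSS and water in wild-type mice Defb3 had a log2 difference of -1.24 ± 0.14 (SE, n = 3 mice per group, limma adjusted p of 0.000297), and in Parp1-/- mice the difference was 0.00 ± 0.14 (adjusted p of 1). In water Defb3 was lower in Parp1-/- than in wild-type mice, at -1.35 ± 0.14 (adjusted p of 0.000153), and the DSS responses differed by 1.24 ± 0.20 (0.00885). In DSS the genotypes differed by -0.11 ± 0.14 (0.874). The DSS difference in wild-type mice and the genotype difference in water kept their calls under all 14 alternatives run for each. Of these, the probe set of highest mean could not change either value, as Defb3 has 1 probe set. The difference of responses lost its call after quantile normalization, at 1.25 (0.23), and with the trend and robust options, at 1.24 (0.122). With the housekeeping mean subtracted the 3 values were -2.45 (0.00139), -2.91 (0.000513) and 2.49 (0.0434). Housekeeping genes were low in wild-type water, so this scaling moves every gene down in the first 2 comparisons and up in the last. These calls therefore add nothing for a gene already on that side. Between genotypes in DSS, array weights called Defb3 at -0.20 (0.028).

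Defb1, the constitutively expressed beta-defensin, was at -0.24, 0.05 and -0.05 in Parp1-/- DSS and at 0.13, -0.12 and -0.19 in Parp1-/- water. Wild-type DSS arrays were at 0.94, -0.06 and -0.15, against 0.84, 0.74 and 0.54 in wild-type water. The 4 high arrays of Defb1 were the 4 arrays that stood apart, where the receptor median was 0.38 to 0.42. Defb1 was lower in Parp1-/- than in wild-type mice in water, at log2 -0.77 ± 0.26 (SE, n = 3 mice per group; limma adjusted p of 0.0419). With the receptor median as a covariate this difference turned to 0.38 (adjusted p of 0.419), whereas that of Defb3 was -1.35 (0.0211). Within groups that median varied most in wild-type DSS, from -0.10 to 0.38 in wild-type DSS 1. This fit leans on that array, with Defb1 at 0.94 and Defb3 at 0.03, and cannot separate arrays from groups. Leaving out any 1 of the 6 water arrays ended the call of Defb1, at adjusted p between 0.0546 and 0.128, as did quantile normalization (0.183) and equal array medians (0.0661). The DSS difference of Defb1 was -0.02 ± 0.26 in Parp1-/- mice and -0.47 ± 0.26 in wild-type mice (1 and 0.24). Without wild-type DSS 1 the wild-type difference was called, at -0.82 (0.00465), as was the difference of responses, at 0.80 (0.0364). Array weights called both too, at -0.74 (0.0036) and 0.82 (0.00792). With the housekeeping mean subtracted, which moves every gene down in both comparisons, DSS in wild-type mice was called at -1.68 (0.00955) and the genotype difference in water was -2.33 (0.000865). The genotypes differed by -0.32 ± 0.26 in DSS (0.872), and the difference of responses over all arrays was 0.45 ± 0.36 (0.535).

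The Defb3 window is chr8:19293111-19293360 on the plus strand, and is shown because Defb3 was called for DSS in wild-type mice.
Defb3: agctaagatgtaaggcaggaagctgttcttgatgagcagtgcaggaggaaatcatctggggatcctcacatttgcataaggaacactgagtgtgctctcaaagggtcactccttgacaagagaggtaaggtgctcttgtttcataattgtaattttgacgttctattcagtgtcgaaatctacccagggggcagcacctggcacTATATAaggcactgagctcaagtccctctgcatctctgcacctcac
It held a TATA-type site 46 to 41 bases before the start and none of the other 3 motifs. In all, 4 of the 7 genes with a window held a TATA-type site, that of Itln1 lying 226 to 221 bases before its start. The window of the other Lypd8 start held none of the motifs. As the TATA letters were widened after the sequences were seen, this count cannot be set against the share of all windows. Lyz1 held none of the 4 motifs.

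Pla2g2a, the secreted phospholipase, varied widely within both DSS groups. It was at -0.84, -0.77 and 1.25 in Parp1-/- DSS, against -0.34, -0.85 and -0.59 in Parp1-/- water. Wild-type DSS arrays were at 0.21, 1.82 and 0.75, against 0.63, -0.21 and 0.47 in wild-type water. Parp1-/- DSS 3 and wild-type DSS 2 were the highest arrays, and the 3 Parp1-/- water arrays lay below the 3 wild-type water arrays, as for 29.2% of all genes. No difference was called: it was log2 0.48 ± 0.54 for DSS in Parp1-/- mice, 0.63 ± 0.54 for DSS in wild-type mice, -0.89 ± 0.54 between genotypes in water and -1.05 ± 0.54 between genotypes in DSS (limma adjusted p of 1, 0.456, 0.207 and 0.872). The difference of responses was -0.15 ± 0.76 (0.934). Without Parp1-/- DSS 3 the DSS difference in Parp1-/- mice turned to -0.21. The genotype difference in water was called in a fit of the 6 water arrays alone, at -0.89 (0.0339), and with the housekeeping mean subtracted, at -2.46 (0.00103). That subtraction moves every gene down in this comparison. The genotype difference in DSS was called with array weights, at -1.81 (0.00279), and without 1 array it ran from -1.73 without Parp1-/- DSS 3 to -0.60 without wild-type DSS 2, called in none of these. The RefSeq table, built on the C57BL/6J assembly, lists Pla2g2a as a transcribed pseudogene, and that strain is known to carry a disrupted copy of the gene. Whether that holds for these mice is unknown, since their strain is not stated.

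Genes that induce or accompany these proteins were counted from lists chosen by function. Among 28 measured genes of the IL-22, IL-17 and microbe-sensing pathways that induce epithelial antimicrobials, 6 rose and 1 fell with DSS in wild-type mice, or 25% of the list beside 13.0% of all genes, and 0 were called in Parp1-/- mice. In the same wild-type comparison 61.5% of the housekeeping genes, 58.3% of the colonocyte markers and 60% of the goblet cell markers were called, all higher. How far the list shares the shift of the wild-type water arrays was not tested. The cytokine Il1b rose by log2 4.34 ± 0.74 (limma adjusted p of 0.00358), Stat3, which relays IL-22, by 2.44 ± 0.35 and the adaptor Myd88 by 2.03 ± 0.27 in wild-type mice. In Parp1-/- mice Il1b was at 3.41 ± 0.74 and Socs3, the feedback inhibitor of STAT signalling, at 0.65 ± 0.17 (adjusted p of 0.419 and 0.684). Between genotypes in water 8 were higher and 2 lower in Parp1-/- mice, with Stat3 at 2.19, Myd88 at 1.87 and Il18 at 1.66. These were 35.7% of the list, near the 31.6% of all genes, and in DSS 0 were called. The median of the list was 0.30 for DSS in Parp1-/- mice, 0.53 for DSS in wild-type mice, 0.19 for the genotypes in water and 0.13 in DSS, beside 0.01, -0.05, -0.07 and 0.00 over all genes. For the difference of responses 0 of 28 were called, with Myd88 at -1.62 and Stat3 at -1.97 (adjusted p of 0.0534 and 0.0672).

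Of 29 other antimicrobial effectors measured, 1 rose with DSS in Parp1-/- mice. It was Nos2, the inducible nitric oxide synthase, which acts inside cells and is not itself secreted, at log2 3.17 ± 0.37 (limma adjusted p of 0.0341). In wild-type mice 9 rose and 0 fell, or 31% of the list beside 13.0% of all genes, with Nos2 at 4.31 ± 0.37 and the lectins Reg3b at 4.26 ± 0.68 and Reg3g at 3.99 ± 0.47. That share lay below the 61.5%, 58.3% and 60% of the housekeeping, colonocyte and goblet cell genes in this comparison. In water 8 were higher and 2 lower in Parp1-/- mice, 34.5% of the list and near the 31.6% of all genes, with Reg3g at 3.06, the goblet cell product Retnlb at 2.31 and Reg3b at 2.23. In DSS 0 were called, with the protease inhibitor Slpi at 1.97 and the siderophore binder Lcn2 at -1.40. The DSS responses differed in 5 of 29, of which 1 was higher and 4 lower in Parp1-/- mice, or 17.2% beside 2.54% of all genes, with Reg3g at -3.51, Slpi at 3.46 and the mucosal scavenger Dmbt1 at -1.83. Of the colonocyte and the goblet cell markers 50% each were called lower there, and of the housekeeping genes 7.69%. Ang4 was lower in the wild-type comparison in which 9 of the 29 effectors rose. The list medians were 0.19 for DSS in Parp1-/- mice, 0.59 for DSS in wild-type mice, -0.02 for the genotypes in water, -0.10 in DSS and -0.27 for the difference of responses.

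Of 23 measured genes of IgA production and transport other than Pigr, 0 were called for DSS in Parp1-/- mice, where the retinoic acid-forming enzyme Aldh1a3 was at log2 3.79 ± 0.54 and the IgA joining chain Jchain at -1.73 ± 0.62 (limma adjusted p of 0.0629 and 1). In wild-type mice 3 rose and 1 fell with DSS, 17.4% beside 13.0% of all genes, including the B cell survival factor Tnfsf13b at 1.32, the receptor Tgfbr1 at 0.95 and the homing receptor Ccr9 at -0.85. In water 4 were higher and 2 lower in Parp1-/- mice, 26.1% beside 31.6% of all genes, with the plasma cell regulator Xbp1 at 1.89, the chemokine Ccl28 at 1.46 and Tgfbr1 at 1.35. In DSS 0 were called between genotypes, with Aldh1a3 at 2.39 and Tgfbr2 at 1.09 (adjusted p of 0.872 each), and 0 for the difference of responses, with Ccl25 at -1.02 and Tgfbr1 at -1.27. The medians were -0.03 and 0.17 for DSS in Parp1-/- and wild-type mice, 0.16 and -0.02 for the genotypes in water and in DSS, and -0.26 for the difference of responses.

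Of 43 measured relatives of the 9 genes, 0 were called for DSS in Parp1-/- mice, and 3 rose and 2 fell in wild-type mice, 11.6% beside 13.0% of all genes. The secreted phospholipases Pla2g5 and Pla2g2d rose by log2 2.34 ± 0.58 and 0.74 ± 0.19 and Ly6d, of the same protein fold as Lypd8, by 2.12 ± 0.44 (limma adjusted p of 0.0232, 0.0296 and 0.0103). In water 3 were higher and 12 lower in Parp1-/- mice, 34.9% beside 31.6% of all genes, with the taurine transporter Slc6a6 at 1.86, the creatine transporter Slc6a8 at 1.82 and the phospholipase Pla2g2e at -0.98. In the same comparison 391 of the 1054 receptor genes were lower and 1 higher. In DSS 0 were called between genotypes, with Slc6a8 at 1.37 and Defb12 at -0.50, and 0 for the difference of responses, with Slc6a20b at 0.76 and Slc6a19 at 0.62. In Parp1-/- mice Ly6d was at 1.28 and Pla2g2e at 0.41 after DSS. The medians were 0.05 and -0.29 for DSS in Parp1-/- and wild-type mice, -0.41 and -0.05 for the genotypes in water and in DSS, and 0.35 for the difference of responses.

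The genes whose values over the 12 arrays lay closest to each of the 9 were found by the root mean square difference in log2 units among 17004 named genes. For Lypd8 they were Ccdc6 (0.14) and the mitochondrial gene ND4 (0.18), and for Slc6a14 the gel-forming mucin Muc2 (0.20) and the respiratory chain subunit Uqcrc2 (0.23). For Pigr they were Sec16a (0.11) and Gcc2 (0.11), for Defb1 Zfp850 (0.10) and Efhc2 (0.10), and for Defb3 Obp2b (0.17) and Tsen15 (0.17). Lyz1 lay nearest to Samd5 (0.23) and Zc2hc1a (0.28). The other 3 had no gene nearer than 0.42: Ang4 lay nearest to Igkj1 (0.42) and Cyp4f17 (0.44), Itln1 to Cyp2c68 (0.44) and Ndufa1 (0.44), and Pla2g2a to Ly6i (0.54) and Herc6 (0.57). Within the set, Lypd8 and Slc6a14 lay closest to each other (0.35), followed by Defb1 and Defb3 (0.42).

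The 14 called differences were recomputed under each other setting run for them. Those of Lypd8, Slc6a14 and Defb3 for DSS in wild-type mice, and of Slc6a14 and Defb3 for the genotypes in water, were called in every one, 5 of the 14 in all. For Defb3 the housekeeping subtraction was bound to move both values further down. The probe set of highest mean could change none of the 14 log2 differences, as each gene has 1 probe set. Leaving out the arrays that stood apart removes wild-type water, so it was run for none of the 14.

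**Figure D4:**
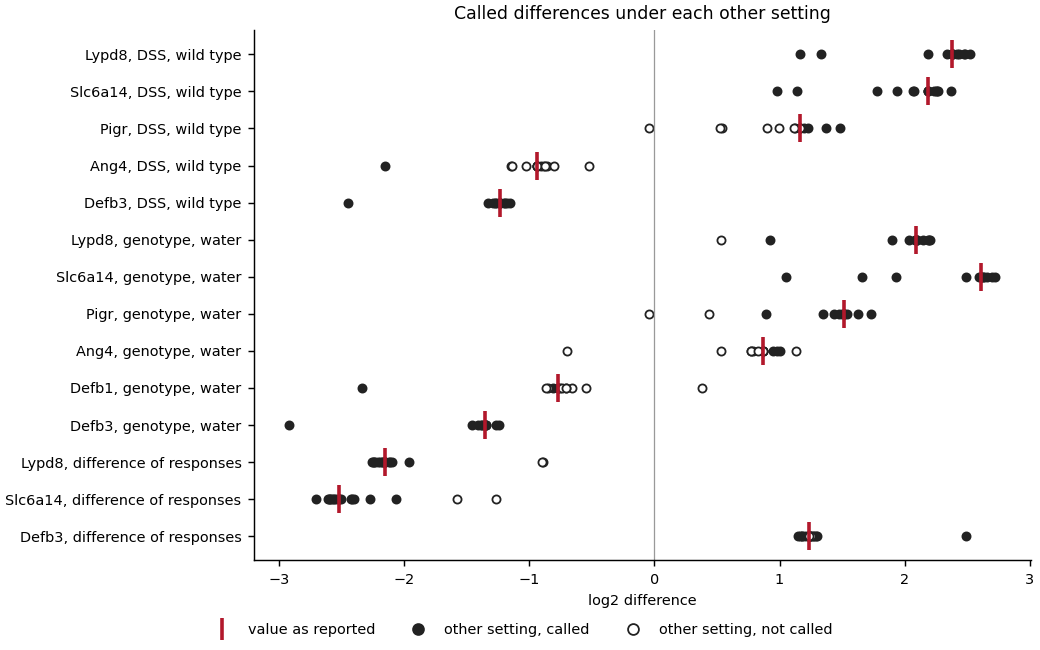
Log2 difference (x axis) of the 14 called differences (rows: gene and comparison) as reported (red bar) and under each other setting run for it (points). Points are filled where the limma adjusted p was under 0.05. Lypd8, Slc6a14 and Defb3 for DSS in wild-type mice, and Slc6a14 and Defb3 for the genotypes in water, stay filled throughout. Every other row holds open points, among them Lypd8 in water and the differences of responses. On the other side of 0 from the reported value lie 4 points.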

How the data were processed

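Total RNA of 12 whole mouse colons was biotin-labelled and measured on Affymetrix arrays, per the labels' protocols. Batches, slides and dates were not stated. The authors deposited 31693 probe sets as log2 values from -4.83 to 5.47, whose row medians lay within 5e-07 of 0. Centring thus follows from the values, while base 2 and the direction were assumed, and the sources used here give neither software nor background correction nor array normalization. Signal over background is unknown, and the number of arrays limits the precision. Probe sets were named from GEO's platform annotation: 22586 had 1 gene symbol, 1756 several and 7351 none, and those of a gene were averaged, giving 21314 genes. No 2 arrays held identical values.

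Groups followed the labelled genotype and treatment. One limma model (3.58.1, R 4.3.3, lmFit and eBayes) of the 4 groups over all 12 arrays gave each comparison, with Benjamini-Hochberg adjustment over all genes and a call at an adjusted p under 0.05. It was tested on simulated data with independent noise and no shift of whole arrays. That test therefore says nothing about the arrays that stood apart. The 9 genes, the lists and the alternatives were chosen with earlier results of these data known. All 9 genes were named in every comparison, and from each list up to 3 called genes of largest difference, or the 2 of smallest p where 0 were called. The alternatives were quantile normalization, equal array medians, the probe set of highest mean, array weights, trend and robust options of eBayes, a fit to the compared groups alone, the receptor median as a covariate, leaving out the 4 arrays that stood apart, leaving out each array, and, added after seeing the data, subtracting each array's housekeeping mean. Leaving out the 4 arrays that stood apart was run only for DSS in Parp1-/- mice and for the genotypes in DSS. Each of the 9 genes has 1 probe set, so the probe set of highest mean cannot change their log2 differences. Subtracting the housekeeping mean moves every gene down by the same amount in each comparison against wild-type water, and up in the difference of responses. The receptor median tells wild-type water from both Parp1-/- groups, so the fit with it leans on wild-type DSS, mainly mouse 1. Promoter sequences came from RefSeq, GRCm38.p6. Tables and figures were made with Python 3.11.15, pandas 2.3.3 and matplotlib 3.10.9.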

Additional observations from a re-analysis of the deposited data

Results flagged for a closer look

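The DSS responses of the genotypes differed by limma's test of the difference itself in 3 of the 9 genes. Lypd8 had a difference of responses, Parp1-/- minus wild type, of log2 -2.15, and 2 of its 19 alternatives did not call it. Slc6a14 had -2.52, with all 3 wild-type DSS arrays above the wild-type water mean and 3 of 3 Parp1-/- arrays moved the other way, and 2 of 19 alternatives did not call it. Defb3 had 1.24, and 2 of 19 alternatives did not call it. In each the 3 wild-type water arrays, which stood apart over the whole array, held the values far from 0, and their part in these differences cannot be told apart from that of the group. Groups of 3 were too small for a test of single samples far from the others.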

How the results depend on the processing

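No paired analysis was possible because the groups share no replicate numbers in the labels. Of the 14 called differences, 5 were called under every alternative run for them, and 4 of the 14 changed sign under 1 alternative each. Of the 9 genes, DSS in wild-type mice called 3 after quantile normalization, 3 with only the arrays compared, 3 with the receptor covariate and 3 to 5 without 1 array. The genotypes in water called 3 with the receptor covariate and 4 to 5 without 1 array. The difference of responses called 0 after quantile normalization, 1 with housekeeping subtraction, 5 with array weights and 3 to 5 without 1 array (5 without wild-type DSS 1). Array weights, whose estimation stopped before its tolerance, also called 1 gene for DSS in Parp1-/- mice and 3 for the genotypes in DSS (Lyz1, Defb3 and Pla2g2a).

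Over all genes, in the order DSS in Parp1-/- mice, DSS in wild-type mice, genotypes in water, genotypes in DSS and difference of responses, quantile normalization called 85, 232, 2219, 0 and 0, array weights 1457, 8772, 10771, 6184 and 7675, the receptor covariate 27, 2230, 459, 0 and 562, and housekeeping subtraction 13, 15781, 16862, 0 and 5467. Trend and robust options called 133 for the difference of responses and 7 for DSS in Parp1-/- mice, and only the arrays compared called 9 for DSS in Parp1-/- mice and 641 for DSS in wild-type mice. Without wild-type DSS 1, DSS in wild-type mice called 6865 and the difference of responses 3178.

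Signs turned as follows, in log2. Quantile normalization gave Pigr -0.034 and Defb3 -0.073 for DSS in Parp1-/- mice, Lyz1 -0.12 for DSS in wild-type mice and Lypd8 0.038 for the genotypes in DSS. Equal array medians gave Pigr -0.0012 and Defb3 -0.016 for DSS in Parp1-/- mice. Array weights gave Defb1 0.076 and Defb3 -0.013 there, Lyz1 -0.31 for DSS in wild-type mice and Defb1 0.0084 for the genotypes in DSS. The receptor covariate gave Defb1 0.21 for DSS in wild-type mice, 0.38 for the genotypes in water, 0.055 in DSS and -0.33 for the difference of responses, Slc6a14 -0.13 for the genotypes in DSS and Pla2g2a 0.16 for the difference of responses. With the 4 arrays that stood apart left out, the genotypes in DSS differed by -0.088 in Slc6a14 and 0.028 in Defb1. Housekeeping subtraction gave Defb1 0.022 for DSS in Parp1-/- mice, Lyz1 -1.06, Pigr -0.047 and Pla2g2a -0.58 for DSS in wild-type mice, Ang4 -0.70, Itln1 -0.84, Lyz1 -0.72 and Pigr -0.046 for the genotypes in water, Slc6a14 -0.22 and Lyz1 -0.13 in DSS, and Ang4 0.90, Itln1 1.08, Lyz1 0.60, Pigr 0.11 and Pla2g2a 1.10 for the difference of responses. Without 1 array at a time, Lyz1 ranged from -0.17 to 0.42 for DSS in wild-type mice, and Defb1 from -0.090 to 0.074, Pigr from -0.049 to 0.075, Defb3 from -0.056 to 0.063 and Pla2g2a from -0.21 to 0.84 for DSS in Parp1-/- mice. For the genotypes in DSS, Slc6a14 ranged from -0.088 to 0.34, Defb1 from -0.52 to 0.028 and Lyz1 from -0.053 to 0.32, and for the difference of responses Itln1 from -0.56 to 0.29 and Pla2g2a from -0.84 to 0.29. The causes were not tested.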
